A study of Volvox carteri with 12 samples.

Results

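The 376 loci described here are stretches of the Volvox carteri genome with low transcript levels in gonidia and still lower levels in somatic cells. They were chosen by their measured values, out of 9593 loci whose gene rows could be matched between the tables of 11 libraries. A member had at least 1 FPKM (fragments counted per kilobase and per unit of library depth) in each of 3 gonidia libraries, namely white light A, white light C and UV-B C. Its mean over these 3 libraries was below 20 FPKM, and its mean over the 6 somatic libraries was at most 10% of that mean. Members made up 3.92% of the matched loci, and all 376 were among the 7540 loci that passed the filter for testing. This filter asked for at least 1 FPKM, after the libraries were scaled, in at least 3 libraries. The gonidia libraries of replicate B, 1 in each light, took no part in the choice.

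RNA was taken from the wild-type strain Eve10 at the stage between maturation and embryogenesis. All cultures grew synchronously at 28 °C with 16 h of light and 8 h of darkness, at about 100 µmol photons per m2 per second of photosynthetically active light. The 4 groups were gonidia in white light, gonidia given ultraviolet B (UV-B) for 1 h at an intensity of 0.056 mW/cm2, somatic cells in white light and somatic cells given the same UV-B. Each group had 3 biological replicates by the labels, A to C, but library A of the UV-B gonidia was left out because all of its 4073 reference rows were listed at 0. This leaves n = 2 in that group and n = 3 in each of the others. How the cell types were separated is not given in the sources used here.

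A Volvox spheroid consists of many small somatic cells, which carry flagella, move the colony and do not divide, and a few large gonidia, which are the asexual reproductive cells. A mature gonidium divides to form a new spheroid that later turns itself inside out. In white light both cell types photosynthesise. UV-B is damaging to DNA and is also sensed by plants and green algae as a light signal.

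The members had many fragments in gonidia and few in somatic cells, where the rule required low levels. The confidence limits beside each value implied 14638100 to 33959100 fragments per library. For the median member they implied 260 to 465 fragments in the gonidia libraries and 8.00 to 14.4 in the somatic libraries. For the median locus tested the numbers were 385 to 771 in the gonidia libraries and 330 to 538 in the somatic libraries. A gene row in these tables carries a position and in some cases a reference gene ID, but no gene name, so no marker gene of either cell type could be read and no role can be given to a member. Loci are therefore named by scaffold, start and end as in the deposited tables. In the absence of markers, 383 loci with at least 20 FPKM in somatic cells and at least 5 times the gonidial mean were followed. They were chosen from the values of these same libraries, B included, so their low mean level in gonidia was selected for. In the B gonidia libraries their median level was 17.8% (UV-B) and 18.6% (white light) of the somatic mean, against 2.77% to 5.05% in the other gonidia libraries.

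The median level of the members was modest and similar in the 5 gonidia libraries, while single members varied widely. Their mean over the 3 libraries of the rule had a median of 5.53 FPKM and ran from 1.19 to 19.8 FPKM, with 174 members below 5 FPKM, 101 between 5 and 10 FPKM and 101 between 10 and 20 FPKM. After division of each library by a median-of-ratios factor (scaled FPKM, used for all values below unless stated otherwise), the median member stood at 6.43, 6.05 and 5.73 in white-light gonidia A, B and C and at 5.74 and 5.88 in UV-B gonidia B and C. In the somatic libraries the median member stood between 0.167 and 0.239. The summed level of the 376 loci was 2858 to 3036 in the 5 gonidia libraries and 118 to 157 in the 6 somatic libraries. The rule selected for this gap, and only the B gonidia libraries lay outside it. These RNA samples are bulk samples, in which fewer cells of a type and less RNA per cell cannot be told apart.

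**Figure D1:**
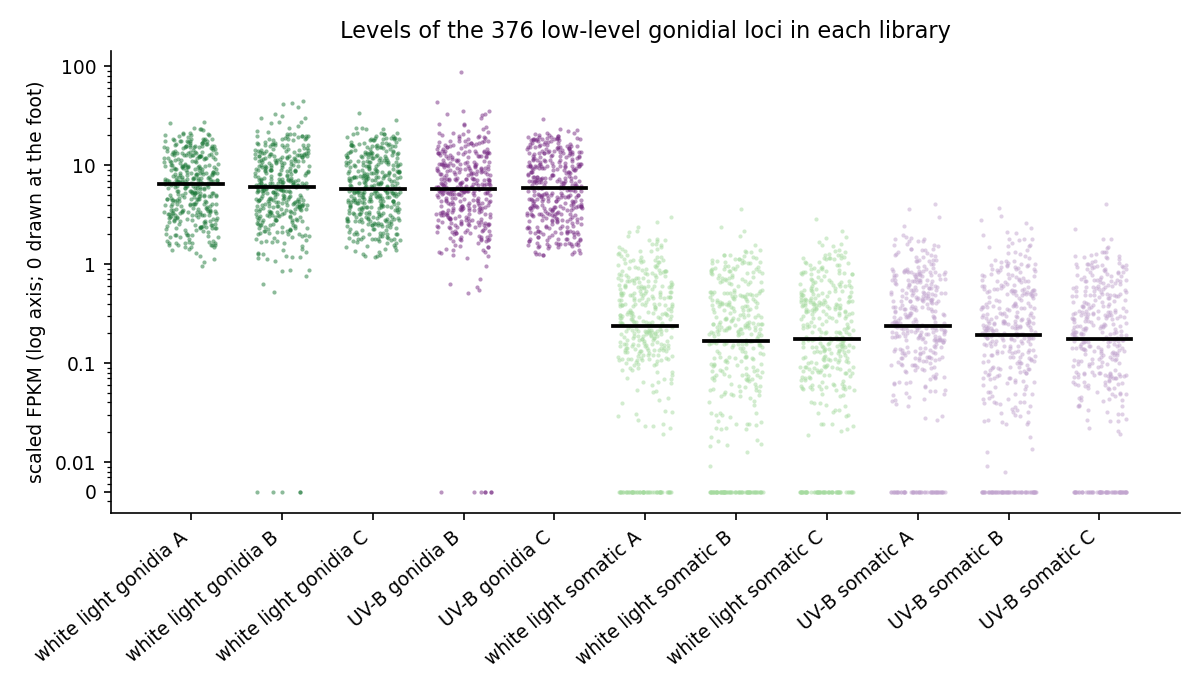
Levels of the 376 loci in each of the 11 libraries, as scaled FPKM on a log axis with values listed at 0 drawn at the foot; each point is a locus and the bar is the median. The medians lie between 5.73 and 6.43 in the gonidia libraries and between 0.167 and 0.239 in the somatic libraries, and values at 0 occur in the somatic libraries and in both B gonidia libraries.

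The gonidial and somatic levels were what the rule selected on, so the next values are a description. In limma on log2(scaled FPKM + 1), 372 members were higher in gonidia than in somatic cells in white light and 363 under UV-B, where 34.7% and 30.6% of all loci tested passed in that direction. The somatic mean had a median of 0.219 FPKM as deposited and a maximum of 1.52 FPKM. As a share of the gonidial mean of the rule it had a median of 5.02%, with the middle 50% of members between 2.77% and 7.38%. It was below 1% at 40 members and between 5% and 10% at 190. The members nearest to the limits were close to loci that were not chosen. The highest gonidial means inside were 19.8, 19.5 and 19.3 FPKM, against 20.3, 20.7 and 20.7 FPKM at the nearest loci outside. The largest somatic shares inside were 9.90%, 9.83% and 9.83%, against 10.01%, 10.09% and 10.12% outside. The lowest single gonidial values inside were 1.002, 1.006 and 1.013 FPKM, against 0.999, 0.974 and 0.973 FPKM outside.

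Most of these loci had values above 0 in the somatic libraries, so the label of loci found only in gonidia does not describe the tables. Whether such low values come from somatic cells or from gonidial RNA in the somatic preparations cannot be told apart in bulk samples, and was not tested. Of the 376 loci, 346 were above 0 in at least 1 somatic library and 273 were above 0 in all 6, while 30 were listed at 0 in all 6. At every one of these 30, another gene row of the same table overlapped the locus in all 6 somatic tables. Most of the 30 were also overlapped in the gonidia tables, where most of their values were above 0. How fragments were assigned where rows overlap was not tested. An exact 0 at such a locus is therefore not taken to show that the RNA was absent.

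The highest of the 30 by gonidial mean were also some of the highest members of all. The locus at scaffold 2, 584391 to 591463 (7073 bp), stood at 21.2, 12.7 and 21.2 in white-light gonidia A, B and C and at 13.4 and 19.1 in UV-B gonidia B and C, lower in both B libraries. It was listed at 0 in the 6 somatic tables, where its last 202 bp lay under a neighbouring row at 27.0 to 32.8 scaled FPKM. Scaffold 52, 435837 to 443076, stood at 20.5, 19.8 and 21.1 in white-light gonidia and at 16.8 and 18.5 under UV-B, a narrow range. In the somatic tables it was listed at 0, and a neighbour that shares 460 bp with it stood at 56.8 to 82.1.

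At 2 other members of this kind the neighbour was lower in gonidia than in somatic cells. Scaffold 1, 6306894 to 6309448, stood at 17.5, 9.62 and 18.9 in white-light gonidia A, B and C and at 9.96 and 22.1 in UV-B gonidia B and C. The row that shares 552 bp with it stood at 70.5 to 99.1 in the somatic libraries, where the member was listed at 0, and at 8.20 to 27.5 in gonidia. In gonidia this neighbour was highest in both B libraries, in which the member was lowest. At scaffold 6, 2554771 to 2559639, the level was 16.7 to 20.3 in the 5 gonidia libraries, and in the somatic tables the locus shared 2438 bp or more with a row at 111 to 176. In gonidia that row stood at 42.2 to 67.4. At a further member the overlap was found in the somatic tables alone. This locus, scaffold 20, 730132 to 734355, stood at 18.4, 10.6 and 19.0 in white-light gonidia and at 12.3 and 19.2 under UV-B. In the somatic tables it shared 37 to 265 bp with a row at 27.0 to 44.6, whereas no row overlapped it in the gonidia tables.

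The same relation held over all somatic values of the members. Of 2256 values (376 loci in 6 libraries), 357 or 15.8% were listed at 0. Another row overlapped the locus at 81.5% of these 357 values and at 17.5% of the 1899 values above 0. With no overlapping row 4.04% of values were at 0, with a row below 5 FPKM as deposited 25%, with a row of 5 to 20 FPKM 42.8%, and with a row of 20 FPKM or more 69.4%. Among the other loci tested the same shares were 0.621%, 1.86%, 4.26% and 6.63%, which rise in the same order from a lower base. Many of the overlaps were short, and an overlap of more than 10% of the row was found at 31.1% of the zeros. These shares describe the tables and were not tested.

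**Figure D2:**
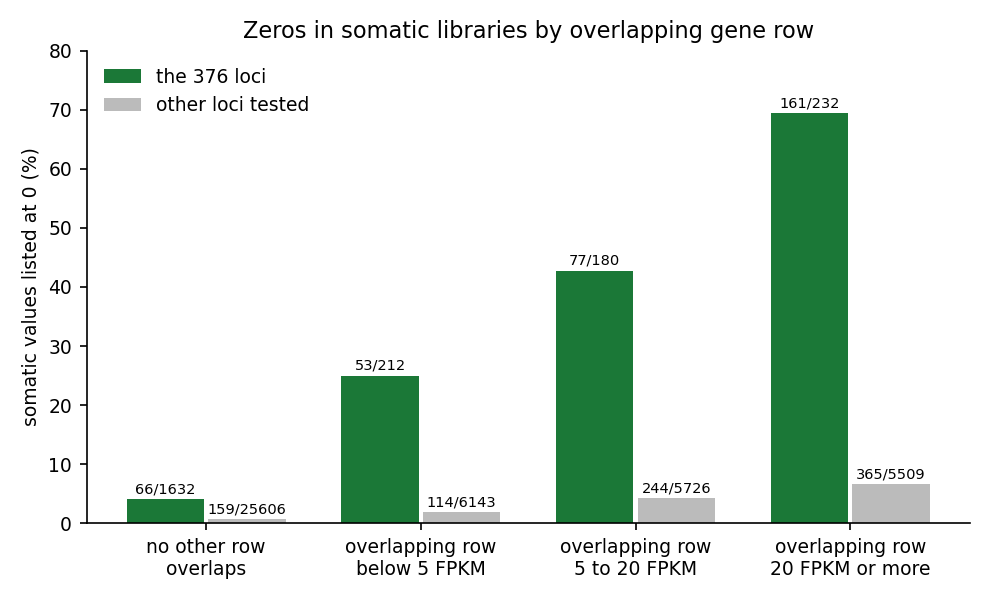
Share of somatic values listed at 0 (%), for the 376 loci (green) and the other loci tested (grey), by the level (FPKM as deposited) of the gene row that overlaps the locus in the same table; the numbers above the bars are values at 0 of all values in the class. Among the members the share goes from 4.04% with no overlapping row to 69.4% beside a row of 20 FPKM or more.

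In 126 members no other row overlapped the locus in any of the 11 tables. All 126 were above 0 in at least 1 somatic library and 104 were above 0 in all 6. Their somatic share of the gonidial mean ran from 0.461% to 9.82% with a median of 4.91%, against 5.21% for the 250 overlapped members. The lowest share belonged to scaffold 24, 1135888 to 1150426. This 14539 bp row stood at 6.56, 2.51 and 7.85 in white-light gonidia A, B and C and at 2.22 and 6.89 in UV-B gonidia B and C. Its somatic values were 0.05, 0.01 and 0.03 in white light and 0.06, 0.00 and 0.04 under UV-B. Next came scaffold 55, 326734 to 328001, which was higher in both B libraries: 11.7, 24.04 and 7.25 in white-light gonidia A, B and C and 21.2 and 6.95 in UV-B gonidia B and C, with at most 0.19 in any somatic library. Scaffold 1, 1691044 to 1702292, was one of the 3 highest members. It stood at 26.5, 17.1 and 15.9 in white-light gonidia and at 16.6 and 19.1 under UV-B, with somatic values of 0.077 to 0.288.

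The B gonidia libraries, which took no part in the choice, held nearly all members above the somatic libraries. Both B libraries exceeded the highest somatic library at 368 of 376 members (97.9%), against 46.9% of all loci tested. Both were at least 10 times the somatic mean at 340 members (90.4%), against 9.85% of all loci tested. The somatic values in these comparisons are those that the rule used, so only the gonidial side is independent of it. Both B libraries reached 1 FPKM at 361 members (96.0%), close to the 95% of all loci tested. All 126 members without an overlapping row had both B libraries above the highest somatic library.

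The 8 exceptions each had a B library listed at 0, and 4 of them were at 0 in both. All 12 of these zeros lay at rows that another row of the same table overlapped. Scaffold 4, 4153964 to 4158394, stood at 3.92, 3.57 and 4.34 in white-light A, white-light C and UV-B C gonidia and was listed at 0 in both B libraries. There it shared 43 and 33 bp with a row at 3659 and 3638 FPKM as deposited. Scaffold 66, 356379 to 359216, stood at 3.19, 3.36 and 3.21 in the same 3 libraries. It was listed at 0 in both B libraries, where it shared 48 and 42 bp with a row at 26.8 and 33.5 FPKM. At scaffold 14, 1582638 to 1585502, the level was 13.2, 14.7, 12.1 and 10.3 in white-light A, B and C and UV-B C gonidia. In UV-B gonidia B this locus was listed at 0, beside a row of 18.0 FPKM that shares 49 bp with it.

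Within gonidia the libraries of replicate B stood apart from the other 3. The ratio of the B mean to the mean of the rule libraries had a median of 0.974 over the members and 1.09 over all loci tested. Both B libraries lay above all 3 rule libraries at 109 members (29.0%, against 36.4% of all loci) and below all 3 at 111 members (29.5%, against 23.3%). Both were at least 2 times the rule mean at 25 members (6.65%, against 13.4%), and both were at most 0.5 times the rule mean at 22 members (5.85%, against 6.59%). Over the 376 members, log2 levels correlated at Pearson r = 0.848 between the B libraries and at 0.848 to 0.880 among white-light A, white-light C and UV-B C. Among these 3 the highest value, 0.880, was that of both white-light libraries, above the 0.858 of both C libraries. Between a B library and any of these 3 the correlation was 0.650 to 0.755. Over all loci tested the same pairs gave 0.905 to 0.973. These are correlations across loci, which are not replicates, and the rule narrowed the members' range in the 3 libraries it used. The B libraries also held the higher levels of somatic-specific loci given above, and whether this plays a part in the members' B levels was not tested.

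**Figure D3:**
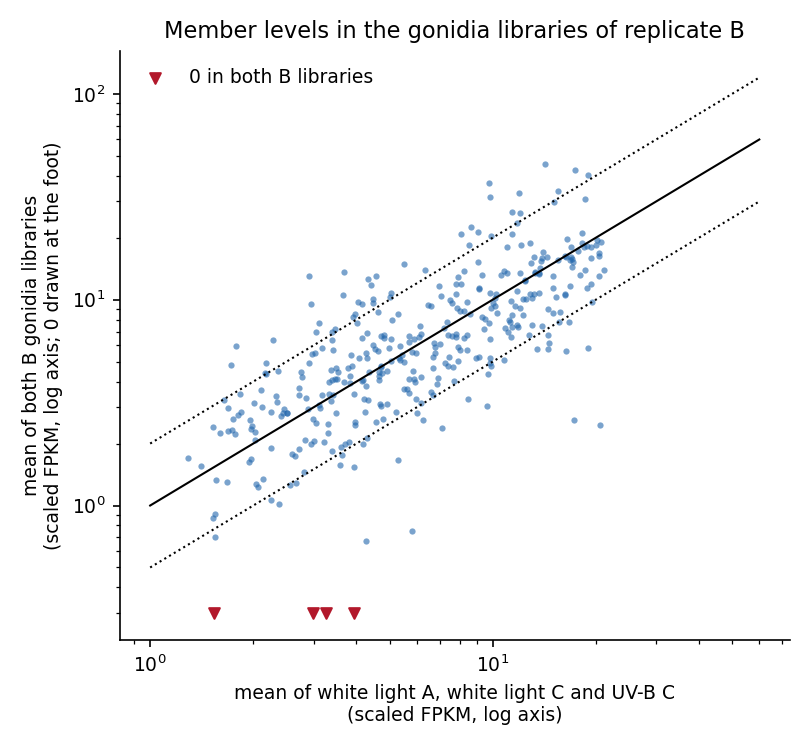
Mean of both B gonidia libraries against the mean of the 3 gonidia libraries of the rule for the 376 loci (scaled FPKM, log axes); the solid line marks equality, the dotted lines a 2-fold difference, and triangles at the foot the 4 loci listed at 0 in both B libraries. Most points lie between the dotted lines, with a median ratio of 0.974.

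Single members ranged from near-constant to strongly variable in gonidia. Over the 5 gonidia libraries the coefficient of variation had a median of 27.2% for the members and 27.6% for all loci tested. The steadiest was scaffold 23, 584579 to 587813, a locus that no other row overlapped. It stood at 15.7, 15.6 and 15.3 in white-light gonidia A, B and C and at 15.6 and 15.4 in UV-B gonidia B and C (coefficient of variation 1.06%), with 0.520 to 1.28 in the somatic libraries. Scaffold 9, 1807083 to 1814665, and scaffold 30, 1246473 to 1249916, followed at 3.11% and 3.19%. At both, the gonidia libraries of the 2 lights overlapped.

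At several members both B libraries lay apart from the others. Scaffold 6, 3933510 to 3936732, which no row overlapped, stood at 13.7, 38.3 and 7.54 in white-light gonidia A, B and C and at 35.5 and 7.96 in UV-B gonidia B and C. Both B values exceeded all others, in both lights. Scaffold 13, 1935987 to 1939520, had the highest ratio of B to rule libraries (4.48): 2.50, 11.4 and 3.01 in white-light gonidia and 14.6 and 3.21 under UV-B. The short row at scaffold 1049, 96 to 797, was among the 10 highest members and stood at 22.9, 44.9 and 18.5 in white-light gonidia and at 35.4 and 15.5 under UV-B. Its somatic values were 0.324 to 0.472 in white light and 0.891, 0 and 0 under UV-B. The opposite order was seen at scaffold 24, 495978 to 497110, at 20.4, 13.9 and 23.9 in white-light gonidia and 13.9 and 19.2 under UV-B.

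The member with the highest gonidial mean was not high in every gonidia library. At scaffold 1, 11310241 to 11314285, white-light gonidia A and C stood at 27.4 and 28.6, but white-light B stood at 2.80, UV-B B at 2.11 and UV-B C at 5.83. White-light A and C are 2 of the 3 libraries that chose the members, so its mean of 19.8 FPKM is not typical of gonidia. Its somatic libraries A and C, at 1.31 to 2.99, lay near the low gonidia libraries, and its somatic libraries B were at 0.154 and 0.291. Scaffold 28, 1669807 to 1674366, had a similar order of gonidia libraries, at 6.76, 0.868 and 9.19 in white light and 0.628 and 1.48 under UV-B.

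At one of the most variable members the ends of the row differed with the level. The locus at scaffold 72, 238086 to 243031, stood at 2.23, 2.79 and 19.96 in white-light gonidia A, B and C and at 88.0 and 20.4 in UV-B gonidia B and C. Its row ended at 245049 or 245051 in UV-B B, UV-B C and white-light C, at 243663 and 243635 in white-light A and B, and at 243031 in all 6 somatic tables. In these 3 libraries, the highest, it touched a row at 12.0 to 51.4 over 49 to 51 bp. At scaffold 9, 1577792 to 1581430, the levels were 1.89, 1.91 and 7.83 in white-light gonidia and 25.4 and 1.34 under UV-B, and the row of the highest library had the same ends as that of the lowest.

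**Figure D4:**
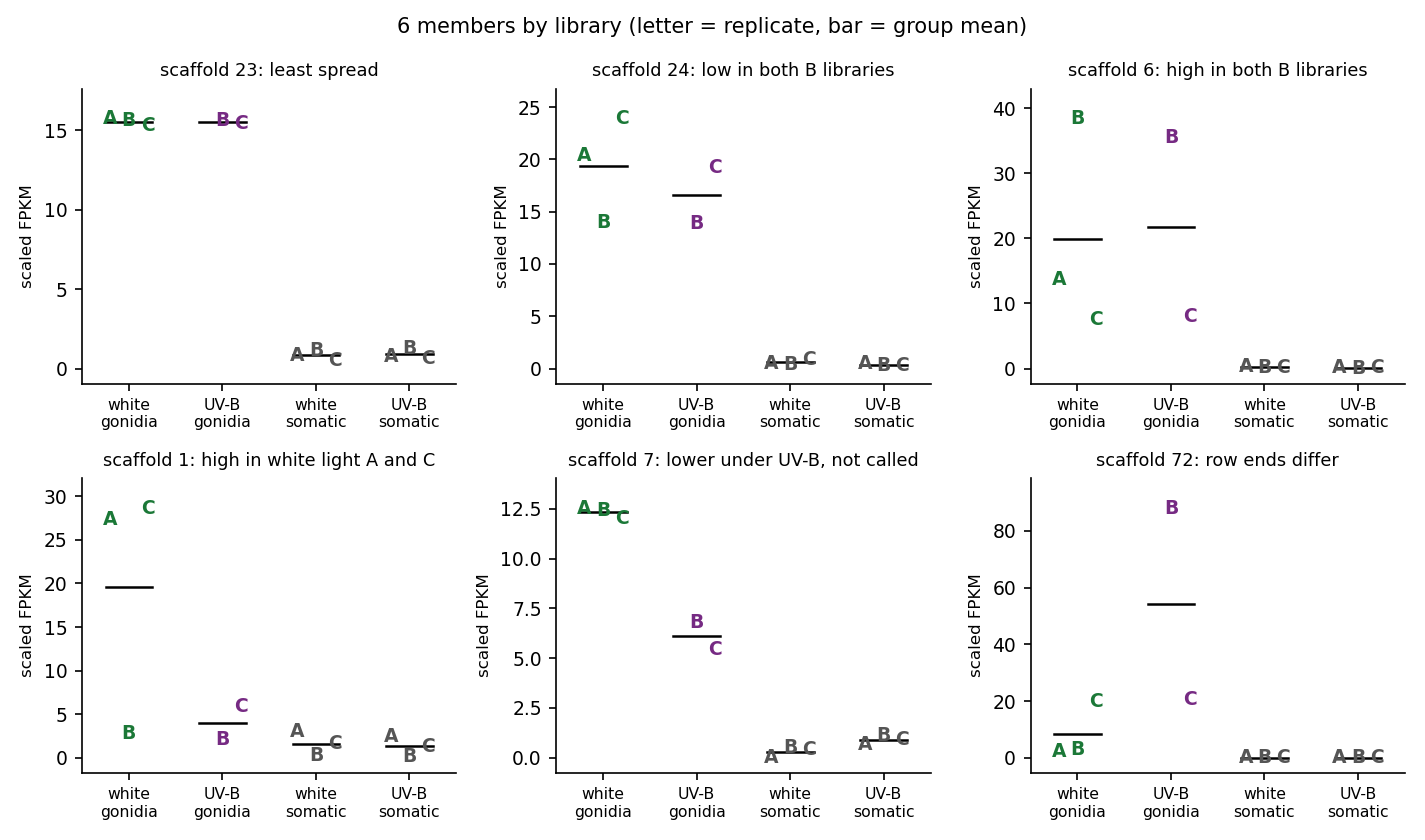
Scaled FPKM of 6 members in each library, on linear axes that start near 0; letters are replicates and bars are group means. The locus on scaffold 23 lies between 15.3 and 15.7 in all gonidia libraries, the loci on scaffolds 24 and 6 have both B libraries apart from the others, and the loci on scaffolds 1 and 72 are carried by 2 and 3 libraries.

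UV-B was then compared with white light. The rule did not use this difference as such, but 3 of the 5 gonidia libraries compared (2 in white light and 1 under UV-B) chose the members, through the minimum of 1 FPKM, the limit of 20 FPKM and the somatic share. The gonidial values below are therefore not free of the rule, and the counts over members are a description. In gonidia no member passed the test in either direction (limma on log2(scaled FPKM + 1), adjusted p under 0.05 over all 7540 loci), and the lowest adjusted p of a member was 1. With n = 3 and n = 2, a p above the threshold does not show that the lights gave the same level. Of all loci tested, 0% passed as higher and 0.0133% as lower. At an unadjusted p under 0.05 (limma), 7 of the 376 members were higher and 12 lower under UV-B. Among all 7540 loci there were 72 higher and 63 lower (0.955% and 0.836%). With the replicate letter as a block 0 members passed (0% of all loci as higher, 0.0265% as lower), and with limma-voom on the fragments implied by the confidence limits 0 members and 0% of all loci passed. The median log2 difference was -0.04 for the members and 0.00 for all loci, and the members' values ran from -2.08 to 2.78. White-light and UV-B gonidia did not overlap at 29 members that were lower under UV-B (7.71%, against 4.72% of all loci) and at 17 that were higher (4.52%, against 4.64%).

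The same-letter pairs of gonidia libraries, which share no library, gave little common direction. The UV-B difference in pair B correlated with that in pair C at r = -0.11 over the members and 0.02 over all loci.

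**Figure D5:**
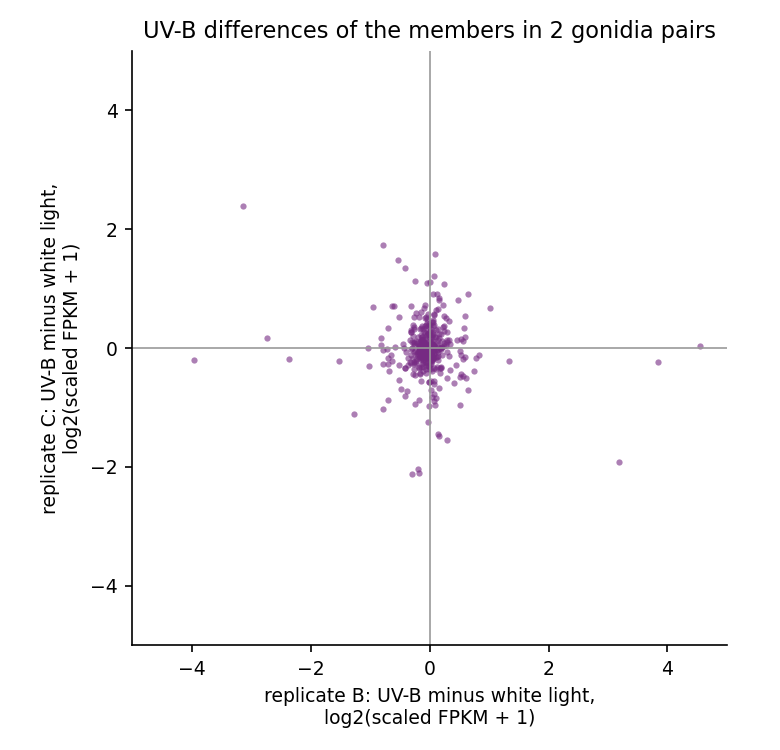
UV-B minus white light on the log2(scaled FPKM + 1) scale in gonidia, replicate C against replicate B, for the 376 loci. Points scatter around 0 in both pairs without a common direction (r = -0.11).

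The member with the lowest p in gonidia was scaffold 7, 110188 to 114174, which no row overlapped. It stood at 3.85, 7.04 and 5.48 in white-light gonidia A, B and C and at 2.31 and 2.01 in UV-B gonidia B and C, so the lights did not overlap. The log2 difference was -1.001 ± 0.228 (SE; limma, unadjusted p = 0.0015, adjusted p = 1). With limma-voom on the implied fragments its log2 difference was 0.064, of the opposite sign. Its row was longer in 4 of the 5 gonidia tables than in the somatic tables, by different amounts at both ends.

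Separation by light in both cell types was found at scaffold 7, 3365571 to 3366588, a short row of 1018 bp. Its levels were 12.5, 12.4 and 12.0 in white-light gonidia A, B and C and 6.81 and 5.43 in UV-B gonidia B and C. In somatic cells it stood at 0, 0.507 and 0.437 in white light and at 0.671, 1.11 and 0.942 under UV-B. The lights thus did not overlap in either cell type, and the order was opposite. The log2 difference was -0.91 ± 0.23 in gonidia and 0.55 ± 0.20 in somatic cells (SE), and the somatic difference minus the gonidial one was 1.47 ± 0.30 (limma, unadjusted p = 0.00079, adjusted p = 0.741). With limma-voom the gonidial difference was -0.29. Another row of 3.62 to 4.62 scaled FPKM overlapped it by 378 to 518 bp in all gonidia tables, and a row of 7.95 did so in 1 somatic table, UV-B B.

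The remaining members with the lowest p in gonidia were mostly at a few scaled FPKM. Scaffold 16, 2005715 to 2006537, stood at 1.88, 2.12 and 1.26 in white light and 3.90 and 3.24 under UV-B, a log2 difference of 0.74 ± 0.21 (SE; limma, adjusted p = 1). Scaffold 15, 249474 to 257184, stood at 3.64, 5.58 and 3.07 in white light and 8.19 and 6.16 under UV-B, a log2 difference of 0.70 ± 0.24 (SE; limma, adjusted p = 1), which was -0.47 with limma-voom. At scaffold 9, 797014 to 797287, a row of 274 bp, white light gave 4.92, 2.06 and 1.803 and UV-B 0.516 and 1.27 (log2 difference -0.997 ± 0.312, SE; limma, adjusted p = 1). The locus at scaffold 72, 238086 to 243031, whose row ends differed between tables, had the largest difference, 2.78 ± 0.78 (SE; limma, adjusted p = 1), or 1.63 with limma-voom. It came from pair B, at 4.55, and not from pair C, at 0.03.

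In somatic cells no member passed either, with 0.0796% of all loci passing as higher and 0% as lower under UV-B. The lowest adjusted p of a member was 0.774 (limma). At an unadjusted p under 0.05 (limma), 5 of the 376 members were higher and 1 lower. Among all 7540 loci there were 202 higher and 145 lower (2.68% and 1.92%). With the replicate letter as a block 0 members passed (0.119% of all loci as higher, 0% as lower), and 0 with limma-voom (0.0531% and 0.0133%). Only 27 members reached 1 scaled FPKM in at least 3 somatic libraries, so the pseudocount of 1 compresses most of the members' differences here, whose median was 0.00, against -0.03 over all loci.

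The lowest somatic p belonged to scaffold 3, 821135 to 825621, at 1.13, 0.523 and 1.046 in white-light somatic cells and 0, 0.216 and 0.224 under UV-B. The log2 difference was -0.72 ± 0.22 (SE; limma, adjusted p = 0.774). Scaffold 2, 3983263 to 3986735, and scaffold 9, 2402099 to 2413029, were next in that direction, with log2 differences of -0.66 ± 0.30 and -0.30 ± 0.17 (SE; limma, adjusted p = 1). In the other direction stood scaffold 11, 2645332 to 2649209, at 0, 0 and 0.624 in white light and 0.793, 2.61 and 0.691 under UV-B. Scaffold 25, 1869893 to 1888015, stood at 1.75, 0.155 and 0.263 in white light and 1.835, 2.10 and 1.81 under UV-B. Their log2 differences were 0.92 ± 0.31 and 0.87 ± 0.30 (SE; limma, adjusted p = 0.883), and with limma-voom, which uses no pseudocount of 1 FPKM, 5.01 and 0.21 (adjusted p = 0.523 and 0.9997). In gonidia these last 2 loci differed by 0.03 ± 0.35 and 0.14 ± 0.34 log2 units (SE).

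The difference of the UV-B responses between the cell types was called at 0 members, with 0.0398% of all loci passing as more positive in somatic cells and 0% as less positive. At an unadjusted p under 0.05 (limma), 7 of the 376 members were more positive and 2 less positive in somatic cells. Among all 7540 loci there were 89 and 72 (1.18% and 0.955%). With the replicate letter as a block 0 members passed (0.0398% and 0% of all loci), and 0 with limma-voom (0.0265% and 0.0133%). After the locus at scaffold 7, 3365571 to 3366588, the lowest p belonged to both 274 bp rows. At scaffold 9, 797014 to 797287, the somatic values were listed at 0 in the 3 white-light libraries and at 0.398, 0.501 and 0.646 under UV-B, a difference of responses of 1.59 ± 0.42 (SE; limma, adjusted p = 0.9996). At scaffold 3, 1904322 to 1904595, they were listed at 0 in white light and at 0.798, 0.502 and 0.323 under UV-B, beside 7.01, 4.42 and 5.09 in white-light gonidia and 4.39 and 2.11 in UV-B gonidia. Its difference of responses was 1.26 ± 0.36 (SE; limma, adjusted p = 0.9996).

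Members passed only when gonidia libraries or a UV-B somatic library were left out. Percentages given for these fits are the share of all loci in the fit that passed in that direction, not the share of members. In gonidia 2 members passed in 2 of these fits and the others in 1. Without both B gonidia libraries 5 members were called higher under UV-B (0.192% of all loci) and 1 lower (0.164%), on the single UV-B library C, whose spread is then assumed to be that of the other groups. Among the 5, scaffold 1, 305948 to 313668, stood at 5.49 and 4.83 in white-light A and C and at 29.4 in UV-B C, a log2 difference of 2.27 ± 0.22 (SE; limma, adjusted p = 0.0090). The B libraries that had been left out gave the reverse, 29.7 in white light and 2.50 under UV-B. Its row ended at 315037 to 315039 in the B libraries and in UV-B C and at 313668 or 313683 in white-light A and C. Scaffold 6, 1611467 to 1618885, stood at 1.57 and 2.01 in white-light A and C and 8.99 in UV-B C, against 5.45 and 2.73 in the B libraries of white light and UV-B. Both loci were also called for the difference of the responses in that fit, where 0.0822% of all loci passed as less positive in somatic cells.

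At the other 3 called higher on UV-B C alone, that library stood above all other gonidia libraries. Scaffold 44, 229247 to 231269, stood at 5.69, 4.93 and 6.17 in white-light gonidia A, B and C, at 5.29 in UV-B B and at 20.5 in UV-B C. It was the 1 member called when only UV-B gonidia B was left out (0.0672% of all loci; limma, adjusted p = 0.037). At scaffold 17, 1472094 to 1479704, and scaffold 31, 571354 to 575465, UV-B C stood at 7.81 and 5.59, and the other 4 gonidia libraries at 2.30 to 3.38 and 1.62 to 2.13. The 1 member called lower was scaffold 28, 1669807 to 1674366, described above, which was also called when only white-light gonidia B was left out (0.0268% of all loci; limma, adjusted p = 0.041).

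Without UV-B gonidia C, 1 member was called higher (0.0665% of all loci) and 3 lower (0.173%), on the single UV-B library B. The 3 lower ones, scaffold 14, 1582638 to 1585502, scaffold 1, 9574743 to 9575761, and scaffold 7, 1057203 to 1057977, were all listed at 0 in that library beside an overlapping row. They were also called for the difference of the responses (0.16% of all loci). In UV-B gonidia C these 3 stood at 10.3, 2.41 and 3.33, against 12.1 to 14.7, 2.88 to 4.16 and 2.85 to 5.63 in the white-light libraries. The higher one, scaffold 9, 2678132 to 2680611, stood at 7.36 in UV-B B and at 1.57 to 2.32 in the other 4 gonidia libraries. Without UV-B somatic B, scaffold 11, 1581885 to 1586251, was called higher in somatic cells (0.279% of all loci; limma, adjusted p = 0.021). It stood at 4.08 and 4.09 in UV-B somatic A and C and was listed at 0 in UV-B somatic B and the 3 white-light libraries. In all 6 somatic tables it was overlapped by a row at 39.4 to 47.3, over at least 1010 bp.

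Members were mostly loci with a reference gene ID, as were other loci with little somatic RNA. A reference ID was found in at least 1 table for 348 members (92.6%), against 48.9% of all loci tested. Among loci with a somatic mean below 0.5 FPKM, the share was 92.6% of 285 members and 92.7% of 315 other loci, so the members did not stand apart from loci of like somatic level. The ID was listed in the somatic tables more often than in the gonidia tables. It was present for 60.9% to 75.3% of members in a somatic table and for 25.5% to 29.0% in a gonidia table, against 19.5% to 28.8% of all loci tested in any table. It was carried in every table by 38 of the 376 members and by 394 of the 7540 loci tested.

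The rows of many members, but not of most, were longer in gonidia than in somatic cells. The gonidia rows were over 5% longer at 168 members (44.7%), against 15.2% of all loci tested, and the somatic rows at 1 member, against 867 of the 7540 loci tested. Row length here is the span of the locus from start to end, and whether it bears on the FPKM values was not tested. Other loci of like somatic level were not set beside the members here, so the longer gonidia rows are not shown to be particular to the members. The row length had a median of 4378 bp, from 274 to 19356 bp, close to the 4784 bp of all loci tested. The longest row, scaffold 7, 1950703 to 1970058, stood at 1.72 to 6.02 in gonidia and 0.031 to 0.200 in somatic cells. Another row overlapped 250 members (66.5%) in at least 1 table, against 72.1% of all loci tested.

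The members lay on 69 scaffolds, with 47 on scaffold 1, 22 on scaffold 2, 19 on scaffold 6 and 17 on scaffold 3. They were 4.83%, 6.13%, 6.40% and 6.30% of the loci tested on these 4 scaffolds, against 4.99% of all loci tested; these differences were not tested. The next tested locus along the scaffold was also a member for 41 of 371 members (11.1%), against 5.02% of all loci. Members formed 33 runs of 2 and 4 runs of 3. In 58 neighbouring pairs the distance was under 20 kb. In 4 pairs the rows overlapped, and in 17 others the gap was under 1 kb. Such pairs may be parts of a single transcript listed as separate rows, which these tables cannot show, and they were not treated as replicates of each other.

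The closest pairs are given with their values at both loci. At scaffold 1, 10305850 to 10310761, and its neighbour, 10310778 to 10311700, the gap was 16 bp. The former stood at 14.0, 13.4 and 12.5 in white-light gonidia A, B and C and 13.6 and 9.59 under UV-B, and the latter at 9.61, 10.96 and 8.79 in white light and 11.8 and 8.87 under UV-B, so the highest library was not the same at both loci. The pair at scaffold 5, 1780801 to 1784790 and 1784818 to 1785443, was lower in the B libraries at both loci. Its first locus stood at 6.94, 3.05 and 5.08 in white light and 3.52 and 5.85 under UV-B, and its second at 7.39, 2.51 and 4.87 in white light and 2.67 and 6.55 under UV-B. At scaffold 11 the loci 1521682 to 1522480 and 1522518 to 1523352 both had their highest gonidial value in UV-B C, at 18.1 and 9.37. At scaffold 29 (668860 to 671797 and 671848 to 672572) and scaffold 15 (1471366 to 1480622 and 1480680 to 1482183), the ratios of the B libraries to the rule libraries were 0.674 and 0.643, and 0.754 and 0.828.

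The 4 runs of 3 lay on scaffolds 1, 25, 39 and 72. On scaffold 1, between 5684115 and 5696545, the mean levels of the rule libraries were 11.3, 7.26 and 3.21 for the 3 loci in order of position, and their B ratios were 0.743, 0.676 and 0.636. On scaffold 72 the run ended with the variable locus 238086 to 243031. The B ratios of its 3 loci were 2.29, 1.88 and 3.20, all above 1.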

How the data were processed

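Libraries were made from polyA RNA for Illumina sequencing, per the labels' protocols. The authors deposited 1 table per library with gene-level FPKM, its 95% confidence limits and a position, per the file headers. The submitters' processing notes list TopHat2 (version 2), Cufflinks (2.0.1) and Cuffdiff (2). Build and annotation: not given in the sources used here. The supplied RefSeq table describes another gene set, so no gene names, and no sequences, were used.

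Rows of different tables were linked where they shared 80% or more of the longer one, and sets with exactly 1 row in each of 11 tables were kept. The rule was applied to FPKM as deposited. The members and lists were chosen with earlier results of these data known. For tests, libraries were scaled by median-of-ratios factors, and a locus had to reach 1 scaled FPKM in 3 or more libraries. Limma 3.58.1 (R 4.3.3) then modelled log2(scaled FPKM + 1) (4 group means, empirical Bayes with an intensity trend). Benjamini-Hochberg adjustment of limma's p-values ran over 7540 loci, with a threshold of 0.05. The pseudocount understates fold changes of low loci. Fit and calls were tried on simulated data with independent noise, where changes of 1 log2 unit in members were mostly missed. The absence of a call therefore does not show an unchanged level. Matching used Python 3.11.15 with pandas 2.3.3. Fragments were implied from the confidence limits, taken as 2 SD, under counting error only. These implied numbers came within 0.05 of a whole number for 86.0% to 90.7% of the low reference values.

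Loci named came from lists, and not every locus of a list is named. The lists held the 10 highest members and the 5 highest listed at 0 in all somatic libraries. They also held the 3 lowest p in each direction of each UV-B contrast and the 5 lowest and highest B ratios. Further lists held those nearest to each limit, the 5 closest pairs, the longest and shortest row, and the 3 with most and least spread. Among the 10 highest, those not described above start at 1022339 and 1138134 on scaffold 6, 2237421 on scaffold 4 and 285980 on scaffold 18. Their B ratios were 0.920, 0.969, 0.797 and 0.819. Loci called with a library left out, the B exceptions, the lowest somatic shares without an overlapping row and the runs of 3 were named after their values were seen. The planned fit on 12 libraries was made on 11. Same-letter deviations from the group means correlated at 0.351, 0.447 and 0.202 for A, B and C in somatic cells. In gonidia they correlated at 0.705 and 0.624 for B and C. With n = 2 in UV-B gonidia, the deviations of its B and C libraries are equal and opposite. Both gonidia values therefore rest on the same UV-B deviations, and they do not show a pairing of the C libraries separately from B. For the block fit the letters were taken to pair libraries of a cell type. This pairing was taken from the data, and no label says what a letter shares.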

Additional observations from a re-analysis of the deposited data

How the results depend on the processing

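The rule gave 376 members as written and 239 when rows were linked at 90% overlap, 701 with a wider limit on the somatic share (20%) and 186 with a narrower one (5%). Of the members, 246 were not overlapped by more than 10% in any table and 126 (chosen after seeing the data) were not overlapped at all, and all 126 held both B libraries above the highest somatic library. With FPKM scaled first the set shared 367 loci with the members, and with all 5 gonidia libraries in the rule 337. The overlap of zeros was 31.1% when only overlaps of more than 10% were counted.

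UV-B called 6 members in gonidia and 2 for the difference of responses without both B gonidia libraries. Leaving out each library in turn gave 0 to 4 members in gonidia, 0 to 1 in somatic cells and 0 to 3 for the difference. Under the other settings (pseudocount, filter, scaling, quantile normalization, limma-voom, the cell type's own libraries, 90% linking) no member was called. With the replicate block by cell type and letter, 0 members were called in each comparison. Between the cell types, used by the rule, 235 (white light) and 230 (UV-B) of the 239 members of that setting passed at 90% linking. Limma-voom turned scaffold 15, 249474 to 257184, to -0.47 in gonidia and 0.60 in the difference, and scaffold 7, 110188 to 114174, to 0.064 in gonidia; the cause was not tested.

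Few fragments limit the somatic side, where the rule required low levels and the median member had 8.00 to 14.4 implied fragments. Loci assembled differently between libraries are missing from the matched set, and a value beside an overlapping row depends on how fragments were assigned.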
